A study of Macaca fascicularis with 28 samples.

Results

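The interleukin 1 family and its receptors were examined in macaque taste buds and lingual epithelium (LE). Members were the probe sets whose symbol is IL1A, IL1B, IL1RN, IL1R1, IL1R2, IL1RAP, IL1RL1, IL18, IL18R1 or IL33, with the study's own names used where it gives them and the array's annotation otherwise. Of these 10 genes, 8 have a named probe set, among 14872 named genes of the array, and together they hold 18 of its 52024 probe sets. No probe set used here is named IL1R1 or IL18R1, so these genes were not analysed here. A probe set was tested where it reached 25 units in at least 4 samples, and 13 probe sets of 7 genes did so over all 28 samples. The other 5 were too dim. They are the dimmest probe set of IL1B, a pair of IL1RL1, the fourth of IL1R2 and the single probe set of IL1RAP.

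IL1A and IL1B are the agonists of the receptor IL1R1, and they signal when it binds them and recruits the shared co-receptor IL1RAP. IL1RN occupies the same receptor without signalling, and IL1R2 binds these agonists but lacks a signalling domain, so both act as brakes. IL33 acts through IL1RL1 (ST2) and IL18 through IL18R1. Stratified epithelia are known as stores of IL1A, IL18, IL33 and IL1RN. IL1B and IL18 are made as precursors that need cleavage, so a transcript level says nothing of active protein. In the RefSeq gene table of Macaca fascicularis, IL1A, IL1B and IL1RN lie in 1 stretch of chromosome 13 with the IL36 genes and IL37. IL1R2, IL1R1, IL1RL1 and IL18R1 lie in another stretch of that chromosome, with IL1RL2 among them and IL18RAP next to IL18R1. IL18, IL33 and IL1RAP lie on chromosomes 14, 15 and 2.

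The tissue was cut by laser capture microdissection from tongues of cynomolgus macaques that carry no labelled treatment or mutation. The 6 groups were CV taste buds (circumvallate papillae, posterior tongue) and the surface LE beside those papillae, from animals 1, 3, 4 and 5; FG taste buds (fungiform papillae, anterior tongue) and the LE beside them, from animals 1 to 6; and the top and the bottom fraction of CV taste buds, from animals 7 to 10. Animals 1 to 6 were 2.6 to 4.5 years old and held 2 males, and animals 7 to 10 were 3 years old and held 1 male. A sample is material of 1 animal pooled over several tissue sections, and the animal is the replicate. Values are intensities in arbitrary units, normalized by the authors with GC-RMA. Array medians lay between 13.6 and 16.7 units, and the number of arrays limits the precision. Differentiated keratinocyte and type II taste cell markers matched the labelled tissues. Markers of other taste cell types did so less clearly at FG papillae. Basal keratinocyte marker sums overlapped, at 1133 to 1312 units in CV taste buds against 832 to 2138 in adjacent LE. At FG papillae they were 1066 to 1719 units in taste buds against 303.8 to 3587 in LE. Of 3 basal markers tested, 2 were higher in taste buds at each site, and 1 was lower at FG papillae. The summed intensity of 9 differentiated keratinocyte markers was 1121 to 3889 in CV taste buds against 81240 to 89990 in adjacent LE, and 481.3 to 17630 in FG taste buds against 64350 to 89380 in adjacent LE. That of 7 type II taste cell markers was 16120 to 21020 in CV taste buds against 178.1 to 276.5 in adjacent LE, and 14430 to 18940 in FG taste buds against 150 to 332.3 in adjacent LE. Type III taste cell markers summed to 1510 to 3271 units in CV taste buds against 988.9 to 1370 in adjacent LE, and overlapped at FG papillae, at 670.5 to 1331 units in taste buds against 584.5 to 1295 in LE. Type I markers summed to 514.5 to 1345 units in CV taste buds against 63.2 to 149.5 in LE, and to 51.2 to 199.8 units in FG taste buds against 95.2 to 272.1 in LE, where 1 of 2 tested was lower.

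In CV taste buds most of the family was lower than in adjacent LE. IL1A, IL18, IL33, IL1RN, IL1RL1 and the brighter IL1R2 probe set fell. IL1B did not pass the test. Of the 13 probe sets, 9 were lower and 1 was higher, where 18.0% of all tested probe sets were called lower and 17.3% higher. Of the lower ones, 3 are of IL1RN. The IL1A, the brightest IL1RL1 and the dimmest IL1RN probe set reached 25 units only in LE, where they were high. IL18 and IL33 did so in LE and 1 FG taste bud sample each. Their lower calls are thus not independent of the filter, here and in the counts for FG taste buds and the fractions. The median log2 change was -4.55 over the 13 and -0.08 over all 26176 tested. A probe set is called at an adjusted p (limma, Benjamini-Hochberg over all tested probe sets) of at most 0.05, and a log2 change is the difference of group means in a fit with the animal as a block, given ± its standard error. In such bulk samples, fewer cells of a type and less RNA per cell cannot be told apart.

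**Figure D1:**
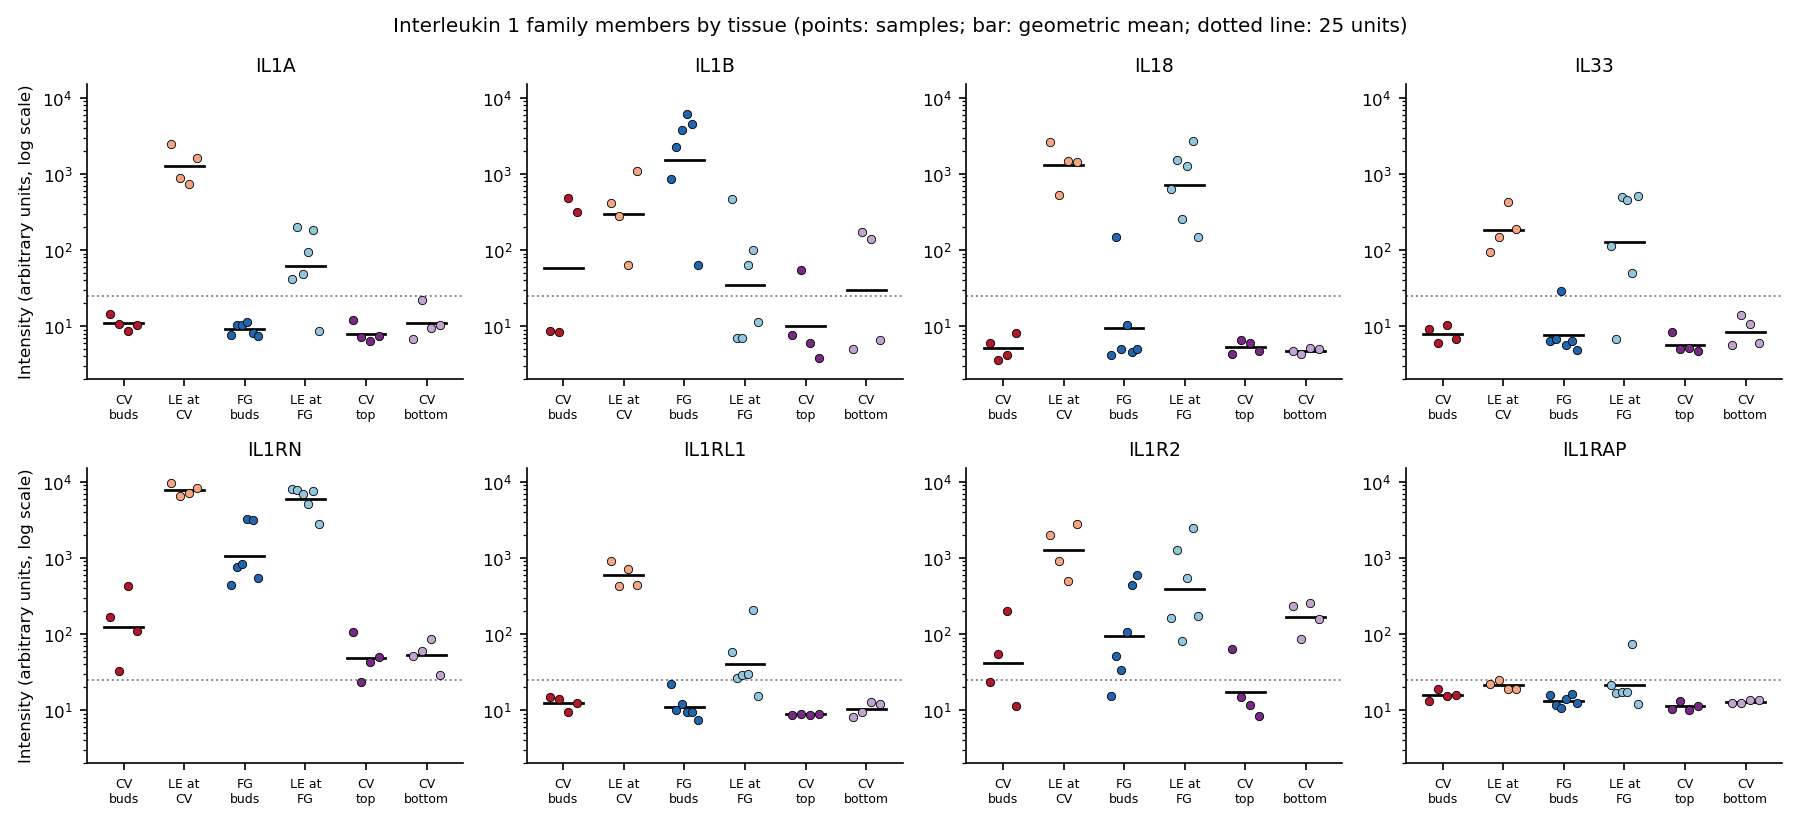
Intensity (arbitrary units, log scale) of the brightest probe set of each measured member in the 6 tissue groups. Points are samples, bars geometric means, and the dotted line marks 25 units. IL1A, IL18 and IL33 were above the line in most LE samples and below it in nearly all taste bud samples, while IL1B reached up to 6128 units in FG taste buds.

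Among the agonists, IL1A was 14.5, 10.6, 8.71 and 10.4 units in CV taste buds of animals 1, 3, 4 and 5, against 2515, 872.7, 733 and 1646 units in their LE. Every taste bud value was under 25 units and every LE value far above it. The log2 change was -6.88 ± 0.60 (adjusted p = 1.68e-06 from limma), lower in 4 of 4 animals. With values under 25 raised to 25, IL1A was at least 51.0-fold lower. IL18 showed the same split, at 5.98, 3.60, 4.12 and 8.09 units in CV taste buds against 2646, 528.6, 1490 and 1425 units in LE. IL18, the inducer of interferon gamma, was at least 52.5-fold lower (log2 change -7.99 ± 0.71, adjusted p = 2.03e-06 from limma). IL33, a nuclear alarmin, was 9.07, 5.99, 10.3 and 6.76 units against 95.3, 147, 429.6 and 187.7 units in LE. Its groups did not overlap either, and its log2 change was -4.55 ± 0.89 (adjusted p = 0.00136 from limma).

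IL1RN, the receptor antagonist, was bright in every LE sample. It measured 166.4, 32.5, 423.4 and 108.2 units in CV taste buds of animals 1, 3, 4 and 5, against 9725, 6465, 7194 and 8328 units in LE. It thus stayed above 25 units in every CV taste bud sample although it was 62.4-fold lower (log2 change -5.96 ± 0.63, adjusted p = 9e-06 from limma). Its other probe sets fell as well, with log2 changes of -6.15 and -2.89. IL1RL1, the IL33 receptor, was 15.01, 13.95, 9.35 and 12.3 units in CV taste buds against 917.1, 424.9, 710.0 and 436.7 units in LE. That is at least 23.6-fold lower (log2 change -5.56 ± 0.51, adjusted p = 2.52e-06 from limma). A dimmer IL1RL1 probe set, between 14.7 and 36.6 units over all 28 samples, had a log2 change of -0.02 (95% interval -0.69 to 0.64).

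The brightest IL1B probe set was split among animals. It measured 8.60, 8.35, 480.1 and 319.9 units in CV taste buds of animals 1, 3, 4 and 5, against 412.3, 279.4, 63.0 and 1085 units in their LE. Animals 1 and 3 were at background in taste buds, and animal 4 had more in taste buds than in LE. The log2 change of -2.37 ± 1.41 was not called (95% interval -5.38 to 0.64, adjusted p = 0.206 from limma). A second IL1B probe set was 7.66 to 17.95 units in CV taste buds against 21.18 to 117.1 units in LE. It was lower in 4 of 4 animals, but its log2 change of -1.83 ± 0.80 was not called either (adjusted p = 0.0916 from limma). Leukocyte markers were also lower in CV taste buds, with 12 markers summing to 279.4 to 605.8 units against 3881 to 5388 units in LE. Of 7 tested, 4 fell, among them LYZ and CD68, where 18.0% of all tested probe sets did. PTPRC (CD45) measured 23.5 to 214.4 units in CV taste buds and 28.5 to 142.7 in LE. Langerhans cell markers summed to 25.75 to 68.65 units in CV taste buds against 110.3 to 349 in LE, and 2 of 2 tested fell. At FG papillae they summed to 20.76 to 53.36 units in taste buds against 64.13 to 546 in LE, and 2 of 2 tested fell there too. Differentiated keratinocyte markers moved with the same contrast, as given above. The part of any of these cell types in the member changes was not tested.

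FG taste buds gave another picture, because IL1B rose while the other ligand members, IL1A, IL18, IL33 and IL1RN, fell. IL1B measured 871.9, 2248, 3780, 6128, 4600 and 64.6 units in FG taste buds of animals 1 to 6. It measured 470.3, 6.89, 6.91, 64.5, 99.9 and 11.4 units in their LE. Animal 6 was low in both tissues and animal 1 high in both, so the groups overlap, but the taste bud value was the higher in 6 of 6 animals. The log2 change was 5.49 ± 1.15 (adjusted p = 0.00205 from limma), or at least 25.7-fold. The second IL1B probe set was 30.3, 75.4, 173.8, 503.1, 553.6 and 9.58 units in FG taste buds against 12.96 to 22.35 units in LE. It rose by 2.56 ± 0.66 on the log2 scale (adjusted p = 0.00723 from limma) and was higher in 5 of 6 animals. The dimmest reached 27.4 and 95.8 units in FG taste buds of animals 3 and 5 and stayed under 25 in every other sample. IL1B is among the genes the study itself singled out from these samples, so its direction is not independent evidence.

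**Figure D2:**
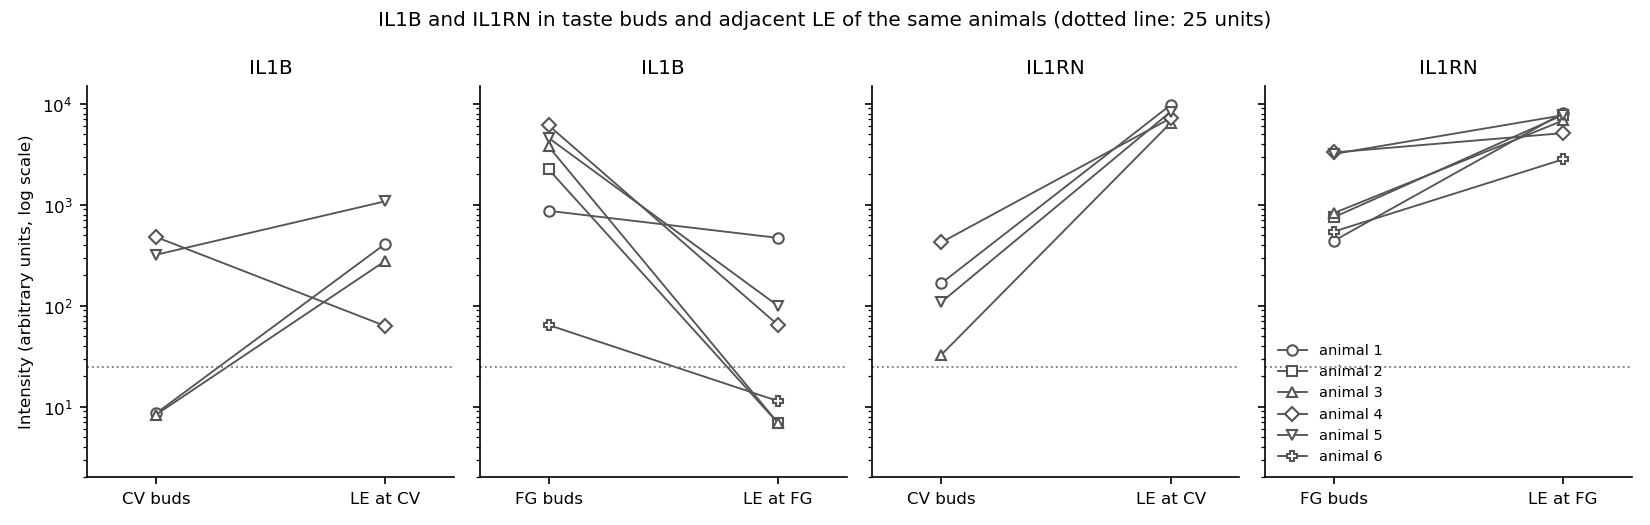
Intensity (arbitrary units, log scale) of IL1B and IL1RN in taste buds and adjacent LE, with lines joining the samples of 1 animal and a dotted line at 25 units. IL1B was higher in FG taste buds than in LE in 6 of 6 animals, and IL1RN was lower in taste buds than in LE in every animal at both sites.

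In FG taste buds 7 of the 13 probe sets passed the test as lower and 3 as higher, where 20.2% of all tested probe sets were called lower and 21.1% higher. The median log2 change was -1.89 over the 13 and 0.05 over all tested. IL18 measured 4.13, 148.3, 4.97, 10.3, 4.57 and 5.01 units in FG taste buds of animals 1 to 6, against 642.7, 1507, 259.8, 1291, 2742 and 150 units in LE. Animal 2 stood far above the other FG taste buds and just below the dimmest LE, so the groups did not overlap. The log2 change was -6.24 ± 0.58 (adjusted p = 2.14e-06 from limma). IL33 was 4.89 to 6.83 units in FG taste buds of 5 animals and 28.5 in animal 3, against 6.86 to 514.6 units in LE. LE of animal 2 was the dim one. IL33 fell by 4.06 ± 0.73 on the log2 scale (adjusted p = 0.000687 from limma), lower in 6 of 6 animals.

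IL1A was 7.34 to 11.3 units in FG taste buds. LE beside FG papillae held 42.0, 201.4, 48.2, 94.1, 181 and 8.50 units in animals 1 to 6. LE of animal 6 was at background, the LE sample that also had the lowest differentiated keratinocyte marker sum. IL1A was at least 2.99-fold lower, and fell by 2.78 ± 0.49 on the log2 scale (limma, adjusted p = 0.000624). IL1RN was 438.1, 751.4, 825.9, 3295, 3183 and 542.3 units in FG taste buds against 8112, 7769, 6832, 5125, 7702 and 2820 units in LE. Animals 4 and 5 were the high ones in FG taste buds, and the same animals had the 2 highest IL1B values there. The differentiated keratinocyte marker sum in FG taste buds was 17630 units in animal 4, the highest of that group, but 820.1 units in animal 5. IL1RN was 5.60-fold lower in FG taste buds than in LE (log2 change -2.49 ± 0.52, adjusted p = 0.00195 from limma). Its other probe sets had log2 changes of -3.09 and -0.96, and the smaller change lost its call without animal 1, 2, 3, 4 or 5 (adjusted p = 0.0548 to 0.148).

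IL1RL1 was 7.44 to 21.9 units in FG taste buds against 15.5 to 208.9 units in LE, and its log2 change of -1.89 ± 0.42 (adjusted p = 0.00286 from limma) rests largely on values near background. With values under 25 raised to 25 it was -0.81 and not called (adjusted p = 0.132). Leukocyte markers summed to 441.2 to 1052 units in FG taste buds against 1122 to 2947 units in LE. Of 7 tested, CD68 and LYZ fell and the other 5 were not called, where 20.2% of all tested probe sets fell. The median log2 change of the 7 was 0.17. PTPRC was 61.8 to 653.4 units in FG taste buds and 21.2 to 246.1 in LE, and CSF3R and FCN1, markers of neutrophils and monocytes, reached at most 62.9 and 13.4 units in FG taste buds. Of 12 leukocyte markers on the array, 6 had a mean of at least 25 units in FG taste buds and 7 in LE. The part of leukocytes in the IL1B values was not tested.

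**Figure D3:**
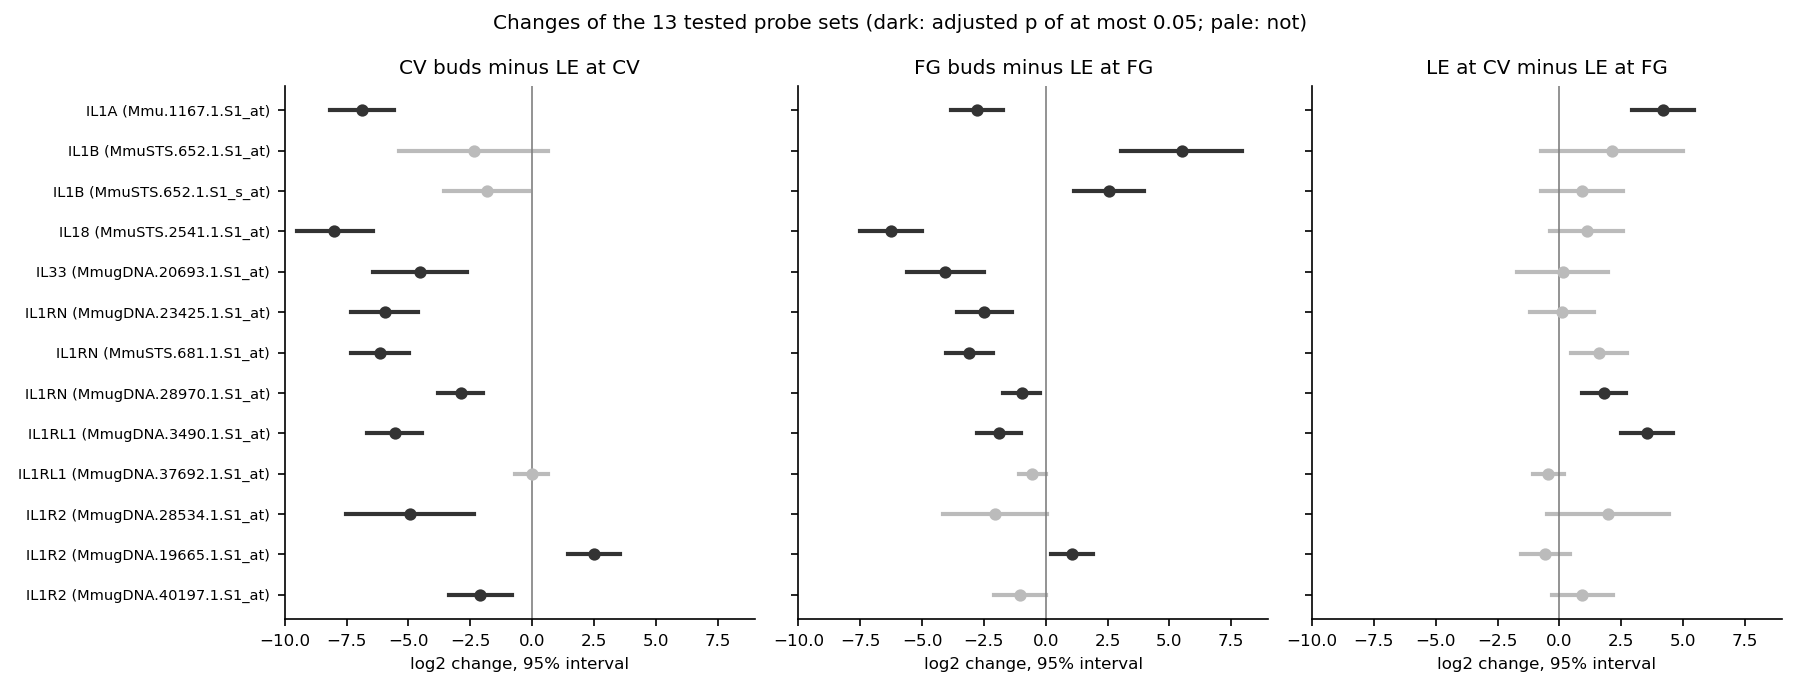
Log2 change of the 13 tested probe sets, with 95% intervals, in CV taste buds against adjacent LE, in FG taste buds against adjacent LE, and in LE beside CV against LE beside FG papillae. Dark symbols passed an adjusted p of 0.05 and pale ones did not. Both IL1B probe sets lie right of 0 in the FG panel, and in the LE panel IL1A and the brighter IL1RL1 probe set lie right of 0 while the dimmer IL1RL1 probe set lies left of it.

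The decoy receptor IL1R2 was read differently by its probe sets. The brightest was 23.7, 54.6, 200.4 and 11.2 units in CV taste buds of animals 1, 3, 4 and 5, against 2000, 913.7, 498.1 and 2813 units in LE. It fell by 4.94 ± 1.20 on the log2 scale (adjusted p = 0.00579 from limma), with 2 of the 4 taste bud values under 25 units. In FG taste buds it was 15.3, 52.2, 33.4, 107.1, 440.6 and 605.6 units in animals 1 to 6, against 161.9, 1272, 79.9, 539.1, 2492 and 174.8 units in LE. Animal 6 went against the other 5, and its change of -2.05 on the log2 scale was not called (95% interval -4.15 to 0.05, limma adjusted p = 0.107). Without animal 6 it was -2.82 with an adjusted p of 0.0359. A dimmer IL1R2 probe set fell in CV taste buds by 2.10 ± 0.59 on the log2 scale (adjusted p = 0.0137 from limma), a call that was lost without animal 5 (-1.50, adjusted p = 0.0951).

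A further IL1R2 probe set ran the other way. It measured 161.1, 71.8, 89.4 and 130.8 units in CV taste buds of animals 1, 3, 4 and 5, against 13.8, 20.5, 31.6 and 14.7 units in LE. It rose by 2.50 ± 0.49 on the log2 scale (adjusted p = 0.00134 from limma) in 4 of 4 animals. Its rise at FG papillae was 1.05 ± 0.40 (adjusted p = 0.0474). Without animal 1 the change in FG taste buds was 0.69 (adjusted p = 0.164), and it was also not called without animal 4 or 5. The probe sequences were not used here, so which transcript each of the 3 reads cannot be told, and no direction is given for IL1R2 as a gene.

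**Figure D4:**
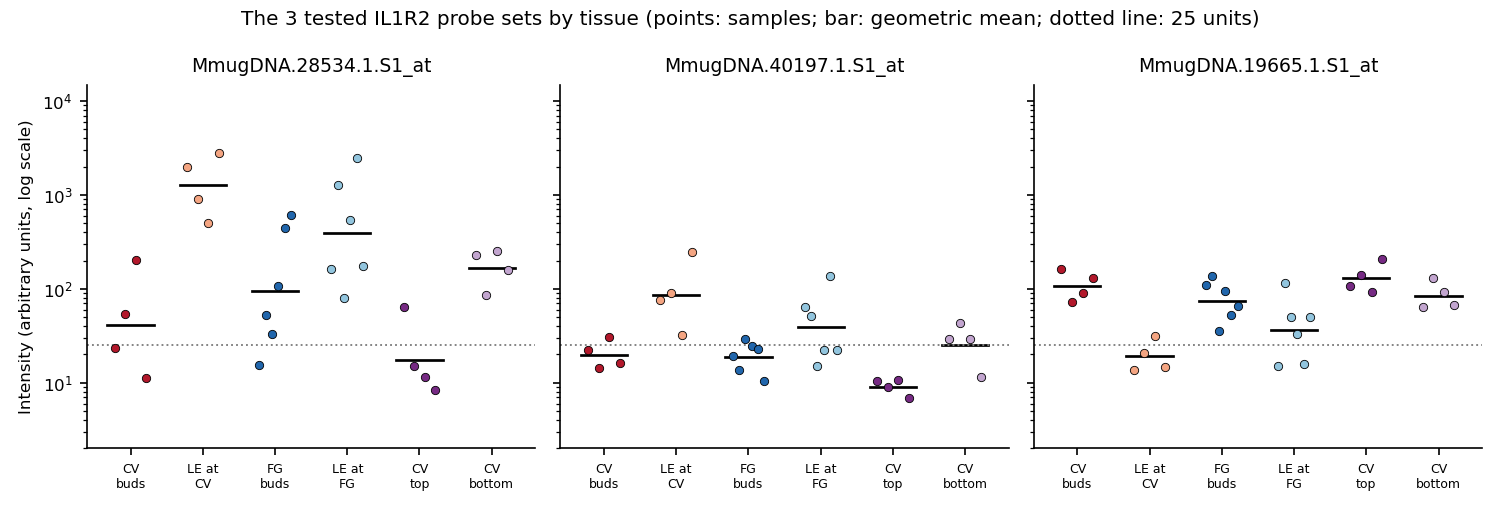
Intensity (arbitrary units, log scale) of the 3 tested IL1R2 probe sets in the 6 tissue groups. Points are samples, bars geometric means, and the dotted line marks 25 units. MmugDNA.28534.1.S1_at and MmugDNA.40197.1.S1_at were dimmer in CV taste buds than in adjacent LE, and MmugDNA.19665.1.S1_at was brighter.

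Taste buds of the 2 sites, set against each other directly, differed in the brightest IL1RN probe set. It was 166.4, 32.5, 423.4 and 108.2 units in CV taste buds of animals 1, 3, 4 and 5, against 438.1, 825.9, 3295 and 3183 units in FG taste buds of the same animals. The CV value was below the FG value in 4 of 4 animals (log2 change -3.38 ± 0.61, adjusted p = 0.0167 from limma). It was the 1 probe set of 13 that was called, where 0.493% of all tested probe sets were called lower and 0.378% higher. The call was lost without animal 3 (-2.91, adjusted p = 0.117) or animal 5 (-2.96, adjusted p = 0.161). Calls over all probe sets then numbered 107 and 45, against 228 with every animal. The other IL1RN probe sets had log2 changes of -1.45 and -0.13, and neither was called (adjusted p = 0.268 and 0.955 from limma). Both IL1B probe sets read less at CV than at FG papillae in 4 of 4 animals, with log2 changes of -5.74 ± 1.35 and -3.48 ± 0.77, and missed the threshold (adjusted p = 0.0656 and 0.0527 from limma). The brightest probe sets of IL1A, IL18, IL33 and IL1RL1 were under 25 units in taste buds of both sites, except IL18 in FG animal 2 (148.3 units) and IL33 in FG animal 3 (28.5 units), and their 95% intervals lay between -2.19 and 1.46.

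The 2 epithelia differed in IL1A and in the brighter IL1RL1 probe set. IL1A measured 2515, 872.7, 733 and 1646 units in LE beside CV papillae of animals 1, 3, 4 and 5, against 42.0, 48.2, 94.1 and 181 units in LE beside FG papillae of those animals. It rose by 4.19 ± 0.58 on the log2 scale (adjusted p = 0.00364 from limma), with no overlap between the groups. This IL1RL1 probe set measured 917.1, 424.9, 710.0 and 436.7 units in LE beside CV papillae, against 58.9, 28.7, 30.3 and 208.9 units in LE beside FG papillae. Its log2 change was 3.53 ± 0.49 (adjusted p = 0.00364), and the call was lost without animal 4 (3.20, adjusted p = 0.0718). Without animal 4, 58 of all probe sets were called, against 331 with every animal. The dimmer IL1RL1 probe set went the other way in 4 of 4 animals, with a change of -0.44 that was not called (95% interval -1.08 to 0.20, adjusted p = 0.468). A dim IL1RN probe set also passed (1.80 ± 0.41, adjusted p = 0.0487), and lost its call without animal 1, 3, 4, 5 or 6. The brightest IL1RN probe set had a log2 change of 0.10 (95% interval -1.2 to 1.4). These 3 of the 13 probe sets were higher, where 0.970% of all tested were called higher and 0.294% lower. LYZ was also higher in LE beside CV papillae (2.35 ± 0.50, adjusted p = 0.0376), and the leukocyte markers summed to 3881 to 5388 units against 1122 to 2947 units in LE beside FG papillae. Of 7 leukocyte markers tested, LYZ was the 1 called and 6 were not, with a median log2 change of 0.8. The sums of differentiated keratinocyte markers were 81240 to 89990 and 64350 to 89380 units. The part of these in the IL1A and IL1RL1 values was not tested.

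The effect of taste buds over adjacent LE was also compared between sites, as an interaction. IL1A fell further at CV than at FG papillae by 4.09 ± 0.78 on the log2 scale (adjusted p = 0.027 from limma), and the brighter IL1RL1 probe set by 3.67 ± 0.66 (adjusted p = 0.0205). The dimmer IL1RL1 probe set had an interaction of 0.52 (95% interval -0.35 to 1.38, adjusted p = 0.584). Both called probe sets were under 25 units in every taste bud sample of either site, so the measured difference lies on the LE side. These were the 2 probe sets of 13 called lower, where 0.600% of all tested were. Without animal 1, 3 or 4 neither was called (adjusted p = 0.0856 to 0.141), and IL1A was not called without animal 5. Over all probe sets the interaction called 228, and 99, 12, 19 and 36 without animal 1, 3, 4 and 5. For IL1B, which was higher in FG taste buds and not in CV taste buds, the interaction was -7.86 ± 1.81 and did not pass (adjusted p = 0.0578). That the IL1B effect differs between sites was therefore not shown at this threshold.

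Within CV taste buds, the brightest IL1R2 probe set was lower in the top than in the bottom fraction. It measured 63.4, 15.01, 11.5 and 8.27 units in the top fraction of animals 7 to 10, against 231.2, 85.2, 254.6 and 157.5 units in the bottom fraction. The fractions did not overlap, and the top was lower in 4 of 4 animals (log2 change -3.27 ± 0.50, at least 5.31-fold, adjusted p = 0.0338 from limma). It was 1 of 3 tested probe sets, where 1.46% of all tested were called lower and 1.68% higher. The call was not kept without animal 8, 9 or 10 (adjusted p = 0.082 to 0.137), and without animal 7 the probe set was too dim to be tested. Over all probe sets 665 were called with every animal. Without animal 7, 8, 9 or 10 the numbers were 0, 0, 1 and 0, so the lost call is not particular to this probe set. With no filter on dim probe sets the adjusted p was 0.0848. The IL1R2 probe set that ran the other way had a log2 change of 0.63 (95% interval -0.21 to 1.47). IL1RN was 105.1, 23.2, 43.2 and 50.2 units in the top and 52.1, 60.2, 85.6 and 29.2 units in the bottom fraction (log2 change -0.14, 95% interval -1.29 to 1.01). IL1B was 7.72, 54.9, 5.97 and 3.85 units in the top fraction against 5.01, 173.8, 140.1 and 6.50 units in the bottom fraction, and was too dim to be tested. Fibroblast markers moved with this contrast. They summed to 580.8 to 1710 units in the top against 4131 to 5593 units in the bottom fraction, and 3 of 4 tested fell. The basal cell factor TP63 was also lower in the top fraction (-3.16 ± 0.49, adjusted p = 0.0348), while LYZ was higher there (2.24 ± 0.39, adjusted p = 0.0418). TP63 was the 1 called of 3 basal keratinocyte markers tested, with a median log2 change of -0.82. LYZ was the 1 called of 5 leukocyte markers tested, with a median of 0.03. The part of any of these in the IL1R2 value was not tested.

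Each fraction was also set against LE beside CV papillae. The fractions came from other animals and another array set, so tissue and array set cannot be told apart. Of the 13 probe sets, 11 were lower and 1 higher in the top fraction, where 19.3% and 25.1% of all tested were. In the bottom fraction 9 were lower and 1 higher, where 19.0% and 23.1% were. IL1A lay between 6.34 and 12.02 units in top samples and between 6.82 and 22.1 units in bottom samples. IL18 lay between 4.25 and 6.58 units in top samples and between 4.31 and 5.10 units in bottom samples. Both were thus under 25 units in these taste buds too. For IL1B the top fraction gave -4.83 ± 1.61 on the log2 scale (limma, adjusted p = 0.0177), a call that was lost without animal 5 (-4.20, adjusted p = 0.0623) or animal 10 (-4.37, adjusted p = 0.0521). In the bottom fraction it was -3.24 ± 1.61 (adjusted p = 0.108).

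The shared co-receptor IL1RAP was under 25 units in 27 of 28 samples. The exception was LE beside FG papillae of animal 5, at 74.9 units, and the lowest value was 10.2 units. That sample also held the highest IL1RL1 and IL1R2 values of its group, at 208.9 and 2492 units. The other receptors and soluble inhibitors of the family were dim as well. IL1RL2, IL18RAP, IL1RAPL1 and IL1RAPL2 have a probe set, and none reached the minimum for testing.

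The IL36 cytokines, close relatives of IL1 made by keratinocytes, fell with IL1A and IL18. IL36A was 19.1 to 34.8 units in CV taste buds against 4072 to 7419 in LE, and 9.15 to 146.8 units in FG taste buds against 362.2 to 5996 in LE. The log2 changes of IL36A, IL36B and the antagonist IL36RN were -7.94, -7.27 and -7.04 in CV taste buds, and -6.78, -6.64 and -6.30 in FG taste buds (adjusted p of at most 7.46e-06 from limma). IL37, an anti-inflammatory member, went the other way in FG taste buds, at 86.4 to 1766 units against 13.5 to 83.1 units in LE. It rose by 4.07 ± 0.65 on the log2 scale (adjusted p = 0.000271), while its change in CV taste buds was 1.06 (adjusted p = 0.317). A difference between the sites was not shown for IL37. Neither CV against FG taste buds (-2.45, limma adjusted p = 0.177) nor the interaction (-3.01, adjusted p = 0.18) was called. Of 4 tested ligands outside the 10 members, 3 were thus lower in CV taste buds, where 18.0% of all tested probe sets were. In FG taste buds 3 were lower and 1 higher, where 20.2% and 21.1% of all tested were.

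Of 8 tested genes of the inflammasome and precursor cleavage, 2 rose and 2 fell at each site, where 17.3% and 18.0% of all tested probe sets did at CV papillae and 21.1% and 20.2% at FG papillae, so the counts are near the share over all probe sets. CASP4, an inflammatory caspase, fell by 3.23 ± 0.45 on the log2 scale at CV papillae and by 1.61 ± 0.37 at FG papillae. AIM2, a DNA sensor, rose by 1.27 ± 0.27 and by 1.21 ± 0.22. NLRP3 rose by 1.24 ± 0.35 in FG taste buds (adjusted p = 0.0114 from limma). Of 9 tested genes of receptor-proximal signalling, 5 fell at CV papillae and 3 at FG papillae, where 18.0% and 20.2% of all tested probe sets did. TAB1, an adaptor of the kinase TAK1, had log2 changes of -3.01 ± 0.55 and -3.21 ± 0.45. The kinase IRAK2 fell in CV taste buds by 2.49 ± 0.48 and had a change of 0.37 in FG taste buds (interaction -2.86 ± 0.62, adjusted p = 0.0481). The medians over the signalling genes were -1.51 and -0.43.

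Genes known to be induced by interleukin 1 rose in part in FG taste buds. Of 11 tested, 5 rose there, with a median log2 change of 1.63, and in CV taste buds 2 rose and 3 fell, with a median of -0.33. Over all tested probe sets 21.1% rose in FG taste buds, and 17.3% rose and 18.0% fell in CV taste buds, so the CV count of rises is near that share. The chemokines CXCL8, CXCL2 and CCL2 rose by 8.29 ± 0.87, 7.27 ± 0.86 and 7.03 ± 0.45 in FG taste buds (adjusted p of at most 2.06e-05 from limma). In CV taste buds CXCL8 rose by 3.69 ± 1.07 and CCL2 by 2.45 ± 0.55, and CXCL2 did not pass (adjusted p = 0.288). Between the sites, CCL2 fell by 4.55 ± 0.53 in CV taste buds against FG taste buds (adjusted p = 0.000654). It was the 1 gene of 11 called there, and the interaction also called 1 of 11 as lower. Over all tested probe sets 0.493% and 0.600% were called lower in these comparisons. For the other 10 genes in each, a difference between the sites was not shown. SOD2, TNFAIP3 and NFKBIZ, which respond to many stimuli, fell in CV taste buds by 3.05, 1.64 and 1.41. In FG taste buds their changes were -0.25, 0.41 and -0.58, none of them called (lowest adjusted p = 0.116). The study singled out CXCL8 and CCL2 from these samples, so their direction is not independent evidence.

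Across the 28 samples the brightest probe sets of IL1A and IL1RL1 varied most alike of the members (Pearson r of log2 intensity 0.95). IL18 with IL1A gave 0.85 and IL18 with IL1RN 0.83. IL1B stood apart, with 0.40 to IL1RN and 0.04 to 0.18 to the other 5. These are descriptions, since the samples share tissue groups and animals. IL18 and IL1R2 were taken further as the ligand and the receptor with the widest range of group mean log2 intensity, a choice that rests in part on taste bud values under 25 units, which have no order. The named genes most like IL18 were SCEL, a protein of the cornified envelope (0.973), IL36B (0.962), LOC694235 (0.960) and IL36A (0.958), over 27751 probe sets compared. For the brightest IL1R2 probe set alone they were DEGS1 (0.805), AMOTL2 (0.800), YIF1B and TEAD1 (0.786 each). Another IL1R2 probe set ran the other way, as given above.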

How the data were processed

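RNA of 28 laser-captured samples of 10 animals was hybridized to Affymetrix Rhesus Macaque arrays. The deposited values are linear intensities, made by the authors with GC-RMA, which subtracts background and quantile normalizes, in 1 run of all 28 arrays. The sources used here give no software version. Intensities were log2 transformed. limma 3.58.1 in R 4.3.3 was fitted to probe sets of at least 25 units in at least 4 samples of the fit: 20 samples of animals 1 to 6 in 4 groups with the animal as a block, the 8 fraction samples likewise, and the 28 samples together, with a random animal block. Benjamini-Hochberg adjustment ran over 26176, 21167 and 27751 probe sets, and the fits were tested on simulated data. The pairing by animal comes from the labels; deviations from group means correlated by 0.05 to 0.12 on average within animals and by -0.04 to -0.01 between them. Folds compare geometric means with values under 25 raised to 25, and are written "at least" only if the floor changed the dimmer group and arithmetic means gave no smaller a ratio. Genes were represented by their brightest probe set and lists by the genes' called changes, up to 4 of which are named. The members and lists were chosen with earlier results of these data known. Alternatives were a floor, median centring, no filter, no animal block, pooled LE, the methods' paired t-test and leaving out each animal.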

Additional observations from a re-analysis of the deposited data

Results flagged for a closer look

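Of 51 groups of 4 to 6 samples checked on the log2 scale, 2 held a sample far from the others by Dixon's criterion, and chance alone flags about 1 group in 20. IL18 was 148.3 units in FG taste buds of animal 2, where the next highest value was 10.3. IL33 was 28.5 units in FG taste buds of animal 3, where the next was 6.83. The taste bud effect over adjacent LE differed between CV and FG papillae, by the interaction term of limma, for IL1A (-4.09) and the brighter IL1RL1 probe set (-3.67).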

How the results depend on the processing

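Over the member probe sets that were called, 499 alternative values kept the direction and the call, 59 kept the direction but were no longer called, and none reversed. Called members numbered 10 in CV taste buds against adjacent LE under every alternative but the methods' paired t-test (7) and leaving out an animal (9 to 10). Without the animal block, which pairs the samples, they numbered 10, 9, 1, 3, 2 and 1 in the 6 comparisons within an array set. The block added the FG call of the IL1R2 probe set that ran the other way (adjusted p = 0.0709 without it) and changed no other member call there. The methods' paired t-test with Benjamini-Hochberg adjustment called 6 in FG taste buds against LE (10 with limma), and 0 between CV and FG taste buds, between the epithelia, in the interaction and between the fractions, where it called 0 of all probe sets. At an unadjusted p of 0.05 that test had 3, 5, 8 and 1 members there, and limma 4, 4, 8 and 1. With no filter 0 members were called between the fractions. Leaving out each animal gave 8 to 11 called members in FG taste buds against LE, 0 to 2 between CV and FG taste buds, 1 to 3 between the epithelia, 0 to 4 in the interaction and 0 between the fractions. Pooling LE made the brightest IL1R2 probe set called in FG taste buds (-2.77, adjusted p = 0.0268). Some changes that no setting called turned sign. For CV against FG taste buds these were IL1A with the floor (-0.02) and without single animals (-0.19 to 0.36), IL33 (0.02) and IL1RL1 (0.19) without the block, IL1RL1 by the t-test (0.02), and IL33 (-0.65 to 0.27) and IL1R2 (-1.52 to 0.56) without single animals. Between the epithelia they were IL33 by the t-test (-0.05) and, without single animals, IL33 (-0.40 to 0.74) and IL1RN (-0.07 to 0.19). Without single animals, IL33 in the interaction (-1.02 to 0.32) and IL1RN between the fractions (-0.53 to 0.27) did too. Over all probe sets, the t-test called 3109 against 9242 in CV and 6961 against 10795 in FG taste buds. It called 0 against 228, 331, 228 and 665 in the other 4 comparisons. The floor gave 589 against 331 between the epithelia and 349 against 228 in the interaction. Between the fractions no filter gave 66 and no block 1033 against 665. Leaving out 1 animal gave 45 to 227 between CV and FG taste buds and 58 to 347 between the epithelia. It gave 12 to 201 in the interaction and 0 to 1 between the fractions. Why these settings differ was not tested. Centring each array on its median shifted changes by at most 0.16 on the log2 scale, in FG taste buds. Dim values near 25 units limit the folds of IL1A, IL18, IL33 and IL1RL1.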
